A study of Mus musculus with 2 samples.

Results

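The genes described are 31 interferon-stimulated genes, measured in the cell classes of blood sorted from old and young mice. Their symbols were taken from a list chosen with earlier results of these data known, and matched to the gene symbols of both deposited matrices. All 31 were among the 32285 genes listed. They comprise the IFIT and OAS families, the ISG15 system, nucleic acid sensors, antiviral effectors, GTPases, transcription factors and a group of other induced genes. The samples are 2 single-cell RNA libraries, 1 from old mice of 24 months and 1 from young mice of 2 months, both labelled male. No treatment, strain or genotype is named, and how many animals were pooled into a library is not given. Red cells were lysed, live blood cells positive for CD45, CD11b and Ly6G were sorted by flow cytometry, and single cells were captured in microwells with the BD Rhapsody system. Each molecule carried a unique molecular identifier (UMI), so a count is a count of tagged transcripts.

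Type I interferons bind the receptor pair Ifnar1 and Ifnar2, whose kinases Jak1 and Tyk2 phosphorylate transcription factors such as Stat2. With Irf9, Stat2 takes part in the complex ISGF3, which binds the interferon-stimulated response element (ISRE) in the promoters of genes such as Ifit1 and Isg15. Interferon gamma acts at the gamma-activated site (GAS), and genes such as the guanylate-binding proteins respond to both routes. Neutrophils carry these receptors, and interferon-responsive neutrophils are a known state of blood neutrophils in mice.

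The deposited matrices list 14334 old and 13599 young cell barcodes. Their UMIs totalled 128826996 in the old and 69599479 in the young library, at medians of 7265.5 per old and 4246 per young barcode. After cells with under 200 genes or over 20% mitochondrial UMIs were removed, 13517 old and 12921 young cells remained. The libraries shared 53 barcodes. Xist, which coats the inactive X chromosome in females, had 27061 UMIs in the old library and 11165 in the young library, although both are labelled male. The Y-linked gene Ddx3y had 967 UMIs in the old and 1329 in the young library, whereas Uty had 3 old and 14 young UMIs, Kdm5d had 5 old and 0 young UMIs and Eif2s3y had 0 in both. The label does not match these counts, and whether animals of both sexes were pooled cannot be told apart from an error in the label.

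Cells of both libraries were clustered together without the 31 members or other interferon genes, and clusters were named from marker genes. Neutrophil-like cells numbered 8802 in the old library and 9764 in the young library. The sort did not leave neutrophils alone. Classical monocyte-like cells numbered 1201 old and 176 young, non-classical monocyte-like cells 510 old and 455 young, and B cell-like cells 163 old and 417 young. T cell-like cells numbered 181 old and 178 young, and NK cell-like cells 26 old and 212 young. There is 1 library per age, so no test was possible and no p-value is given. Levels are CPM, the UMIs of a gene summed over the cells of a class and scaled to a class total of 1000000, and every interval covers counting error only at 95%, not the variation between animals. CPM carries no term for transcript length. A member was counted as higher or lower in old cells where the ratio of CPM, with 1 CPM added to each library, was at least 1.5-fold, and a gene needed at least 20 UMIs over both libraries to be counted.

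Stretches upstream of 8 members are shown because they carry letters of the response elements named above, and because these members differ widely in level and in their ratio between the libraries. Promoter sequences of RefSeq, build GRCm38.p6, were found for 24 of the 31 members, covering 250 bases before each start. Capitals mark a match to GAAANNGAAA (the core of the ISRE) on either strand, and in Igtp and Bst2 also a match to TTCNNNGAA (the core of the GAS).
Ifit1: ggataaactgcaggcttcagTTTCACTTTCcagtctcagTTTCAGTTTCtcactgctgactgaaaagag
Ifit3: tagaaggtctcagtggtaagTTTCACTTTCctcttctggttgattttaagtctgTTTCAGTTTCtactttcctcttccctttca
Ifit3b: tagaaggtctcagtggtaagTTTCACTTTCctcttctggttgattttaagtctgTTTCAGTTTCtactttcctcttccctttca
Isg15: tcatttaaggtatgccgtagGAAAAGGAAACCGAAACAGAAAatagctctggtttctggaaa
Rsad2: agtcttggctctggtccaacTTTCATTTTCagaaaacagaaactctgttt
Oas3: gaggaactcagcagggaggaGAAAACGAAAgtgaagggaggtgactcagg
Igtp: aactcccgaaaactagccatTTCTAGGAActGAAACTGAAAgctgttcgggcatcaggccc
Bst2: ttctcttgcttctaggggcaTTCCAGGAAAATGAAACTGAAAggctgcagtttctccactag

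The windows lie at chr19:34640765-34640833 (Ifit1, + strand), chr19:34583353-34583436 (Ifit3, + strand) and chr19:34607749-34607832 (Ifit3b, + strand). Those of Isg15 (chr4:156200855-156200916), Rsad2 (chr12:26456543-26456592), Oas3 (chr5:120777705-120777754) and Bst2 (chr8:71537567-71537628) are on the − strand, and that of Igtp (chr11:58199491-58199551) is on the + strand. All 84 bases of the Ifit3 window are identical in Ifit3b, and both hold the same pair of matches. Isg15 has 3 overlapping matches. Over 250 bases upstream, GAAANNGAAA occurred on either strand in 13 of the 24 members (54.2%) and in 2.98% of all 32851 promoters. The 13 were Ifit1, Ifit3, Ifit3b, Oas3, Isg15, Rsad2, Bst2, Igtp, Irgm1, Gbp2, Gbp5, Stat2 and Trim30a. TTCNNNGAA occurred in 4 of the 24 members (16.7%), namely Ifit2, Bst2, Igtp and Gbp5, and in 7.02% of all promoters. A match describes letters and not a bound site. In neutrophil-like cells the ratio of old over young CPM ran from 0.148 (Ifit3b) to 0.584 (Bst2) in the 13 members with GAAANNGAAA. It ran from 0.236 (Oasl1) to 0.564 (Xaf1) in the members with a promoter sequence, enough UMIs and no such match, so the ranges overlapped widely.

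In neutrophil-like cells the members together had 1126 CPM in the old library (1119 to 1134) and 3020 CPM in the young library (3004 to 3036). The old sum was 0.373 of the young sum (0.370 to 0.376). Per cell this was 9.91 member UMIs in old cells and 13.6 in young cells, although the median neutrophil-like cell held 7446.5 UMIs in the old library and 4081 in the young. Of 29 members with enough UMIs, 27 were lower in old cells, 0 were higher and 2 were within 1.5-fold. Across all 14162 genes counted in the same way, 37.1% were lower and 7.17% higher in old cells, and the median gene of at least 50 CPM stood at −0.68 on the log2 scale. The members' median stood at −1.45. Set relative to that median gene, 19 members were lower and 1, Zbp1, was higher, beside 8.15% of all genes lower and 30.2% higher. Oas3, Dhx58, Bst2, Igtp, Gbp2, Irf7, Stat2, Xaf1 and Trim30a were within 1.5-fold of that median gene of at least 50 CPM. Of these, Dhx58, Bst2, Igtp, Stat2 and Xaf1 were themselves under 50 CPM in both libraries. The median over all 14162 genes stood at −0.38, and members were not set relative to it. S100a8 and S100a9, the most abundant neutrophil transcripts, took a larger part of all UMIs in old cells. With these 2 genes and the mitochondrial and ribosomal protein genes taken out of the total, the ratio of the member sums was 0.478. Trim30a, Oasl2 and Rtp4 supplied 50.8% of all member UMIs in old cells and 48.1% in young cells.

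The IFIT family had the largest differences as a group. IFIT proteins bind foreign RNA and block its translation, and the 4 genes lie near one another on the + strand of chromosome 19 of GRCm38, between positions 34550694 and 34650009. Ifit1 had 16.05 CPM in old cells and 67.8 CPM in young cells, a ratio of 0.237 (0.221 to 0.253). Ifit3 had 8.57 CPM in old cells and 54.5 CPM in young cells, a ratio of 0.157 (0.144 to 0.171). Ifit3b had 6.02 CPM in old cells and 40.6 CPM in young cells, a ratio of 0.148 (0.133 to 0.164). Old cells were thus far below young cells for all 3 genes, and Ifit3b had the lowest ratio of all members tested. Ifit2 was low in both libraries, at 2.05 CPM in old cells and 8.01 CPM in young cells. Ifit3 and Ifit3b are near-identical copies: 51.2% of the stretches of 50 bases in Ifit3 transcripts also occur in Ifit3b. How reads that fit both were counted is not given in the sources used here, so the split between them is uncertain.

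The OAS family held more transcripts. Oas2 and Oas3 make the oligoadenylate messenger that activates RNase L, and Oasl1 and Oasl2 are related proteins, of which Oasl1 holds back translation of Irf7 in mice. Oasl2 had 204.5 CPM in old cells and 561 CPM in young cells, a ratio of 0.364 (0.357 to 0.372). Oas3 had 87.3 CPM in old cells and 159 CPM in young cells, a ratio of 0.549 (0.530 to 0.567). Oas2 had 32.9 CPM in old cells and 87.98 CPM in young cells. Oasl1 differed most in this family, with 18.7 CPM in old cells and 79.5 CPM in young cells. An antisense gene, Gm13822, overlaps Oasl1, and whether counting used the strand is not given in the sources used here. Gm13822 itself had 20.95 CPM in old cells and 66.0 CPM in young cells.

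The genes of the ISG15 system were lower together. Isg15, a ubiquitin-like modifier, had 52.4 CPM in old cells and 144 CPM in young cells, a ratio of 0.364 (0.350 to 0.379). Usp18, which strips ISG15 from its targets and dampens interferon receptor signalling, had 8.73 CPM in old cells and 35.2 CPM in young cells. Herc6, the ligase that attaches ISG15 in mice, had 16.6 CPM in old cells and 51.3 CPM in young cells.

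The nucleic acid sensors did not move as a block. Ifi204, a DNA-binding PYHIN protein, had 25.2 CPM in old cells and 137 CPM in young cells, a ratio of 0.184 (0.175 to 0.194). Ifih1, the RNA sensor also called MDA5, had 16.7 CPM in old cells and 60.3 CPM in young cells. By contrast Zbp1, a sensor of Z-form nucleic acid that can start necroptosis, had 27.3 CPM in old cells and 23.4 CPM in young cells. Its ratio of 1.17 (1.09 to 1.26) was the highest of the members tested. Dhx58, the helicase also called LGP2, had 13.5 CPM in old cells and 14.5 CPM in young cells, with an interval of the ratio (0.844 to 1.03) that contained 1. Ifi204 shares 30.2% of its stretches of 50 bases with other genes, most of them with Ifi211, which had 1.67 CPM in old cells and 2.11 CPM in young cells.

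Among the antiviral effectors, Rsad2 differed most. Rsad2 encodes viperin, an enzyme that makes a chain-terminating nucleotide, and Cmpk2, a nucleotide kinase, is its neighbour on chromosome 12 in the opposite orientation. Rsad2 had 36.8 CPM in old cells and 174 CPM in young cells, a ratio of 0.211 (0.202 to 0.221). Cmpk2 had 20.8 CPM in old cells and 54.5 CPM in young cells, a smaller difference than that of its neighbour. Rtp4, a receptor transporter protein with antiviral action, had 95.5 CPM in old cells and 269.7 CPM in young cells. Bst2, the virus-tethering protein tetherin, was low, at 4.61 CPM in old cells and 7.90 CPM in young cells, a ratio of 0.584 that was within 1.5-fold of the median gene. Ifi44 had 0 UMIs in neutrophil-like cells of both libraries, which by a limit of 3 counts allows up to 0.0387 CPM in old cells and 0.0681 CPM in young cells.

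All 5 GTPases were lower in old cells, beside 37.1% of all genes, but Gbp2 and Igtp were within 1.5-fold of the median gene. These proteins gather on the vacuoles of intracellular pathogens. Gbp2 was the most abundant of them in UMIs, at 43.3 CPM in old cells and 76.3 CPM in young cells. Igtp had 11.5 CPM in old cells and 28.3 CPM in young cells, and Irgm1 had 9.40 CPM in old cells and 30.97 CPM in young cells. Ifi47 and Gbp5 were at the low end, Ifi47 with 5.42 CPM in old cells and 15.6 CPM in young cells, and Gbp5 with 1.06 CPM in old cells and 5.11 CPM in young cells. Igtp overlaps Irgm2 in the annotation and shares 11.8% of its stretches of 50 bases with it.

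Both transcription factors were lower in old cells, by less than the median member, and both were within 1.5-fold of the median gene. Irf7, which drives type I interferon genes, had 35.1 CPM in old cells and 75.0 CPM in young cells, a ratio of 0.468 (0.445 to 0.493). Stat2, the ISGF3 subunit, had 14.9 CPM in old cells and 32.7 CPM in young cells. Trim30a, a TRIM protein that restrains inflammatory signalling, had the most UMIs of all members, at 272 CPM in old cells and 623 CPM in young cells, a ratio of 0.437 (0.430 to 0.445). Parp14, an ADP-ribosyltransferase, had 30.8 CPM in old cells and 88.3 CPM in young cells. Xaf1, an antagonist of the apoptosis inhibitor XIAP, had 8.08 CPM in old cells and 14.3 CPM in young cells. Phf11d had 3 UMIs in old and 5 UMIs in young neutrophil-like cells and was too low to be counted.

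**Figure D1:**
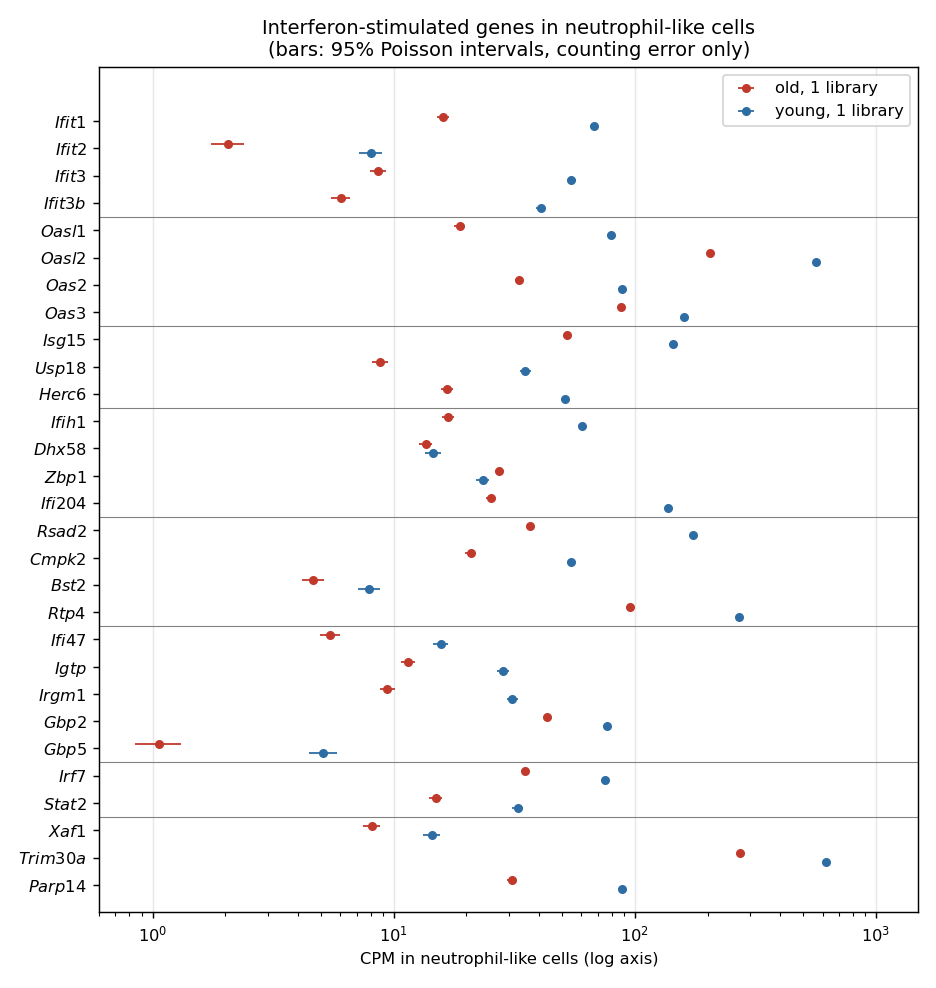
Level of each of the 29 members with enough UMIs in neutrophil-like cells (CPM, log axis) in the old library (red) and the young library (blue), grouped by role in the order of the text, with bars for 95% Poisson intervals. The old point lies left of the young point for all members but Zbp1, and the pair nearly coincides for Dhx58.

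The 2 libraries placed their neutrophil-like cells in different clusters. Cluster 0 held 9246 young cells, 94.7% of that library's neutrophil-like cells, and 573 old cells, 6.51% of theirs, whereas clusters 1, 2 and 4 held 3962, 2200 and 1231 old cells. Within cluster 0 the members had 2775 CPM in old cells (2701 to 2851) and 3126 CPM in young cells (3109 to 3143), a ratio of 0.888 (0.864 to 0.912). Within cluster 4 the ratio was 0.815 (0.779 to 0.853), and within cluster 8 it was 0.810 (0.758 to 0.866). The median gene of at least 50 CPM stood at −0.049 on the log2 scale in cluster 0, −0.10 in cluster 4 and −0.42 in cluster 8. The members' median stood at −0.28, −0.37 and −0.27 in these clusters. In cluster 8 the members were thus not lower than the median gene. The difference over all neutrophil-like cells was thus larger than that within shared clusters, and the ratio of 0.373 holds for the mixture of clusters in each library. With finer clustering, 4 neutrophil-like clusters held at least 100 cells of each library. Their ratios were 1.05 (1.01 to 1.10), 0.779 (0.744 to 0.814), 0.836 (0.808 to 0.865) and 0.745 (0.703 to 0.789), so 3 were lower in old cells and 1 was slightly higher.

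Across clusters the members were lowest in clusters 2 and 12, where genes of neutrophil granule formation were highest. Ltf, Camp and Ngp, granule proteins made by immature neutrophils, summed to 610 CPM in old and 35.0 CPM in young cells of cluster 0. In cluster 2 they summed to 24181 CPM in old and 30929 CPM in young cells, and there the members had 732 CPM in old and 1129 CPM in young cells. In cluster 12 they summed to 74210 CPM in old and 82058 CPM in young cells, and the members had 310.5 CPM in old and 434 CPM in young cells, the lowest sums of all neutrophil-like clusters. The old library had the larger share of such cells, with 2200 old and 58 young cells in cluster 2 and 328 old and 18 young cells in cluster 12. Cluster 1, with 3962 old cells, had 986 CPM of the granule genes and 1330 CPM of members in old cells. Its 32 young cells had 2399 CPM of members. Old cells of cluster 4 had 727.5 CPM of the granule genes and 2477 CPM of members. The members thus also differed between clusters with low granule levels. The part of maturity in the difference between the libraries was not tested.

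**Figure D2:**
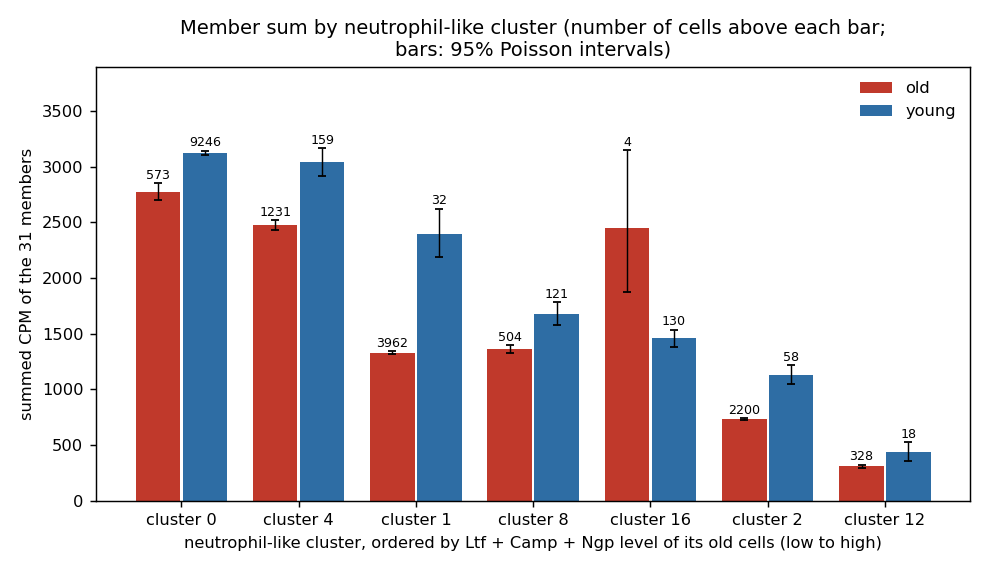
Summed CPM of the 31 members in each neutrophil-like cluster for old (red, left) and young (blue, right) cells, with clusters ordered by the level of Ltf, Camp and Ngp in their old cells, the number of cells above each bar and 95% Poisson intervals. Old bars stand below young bars in 6 of the 7 clusters, and cluster 16, with 4 old cells, is the exception; both libraries are lowest in cluster 12.

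Gene by gene, fewer members differed within cluster 0 than over all neutrophil-like cells. Of 29 members tested there, 6 were lower in old cells (Ifit1, Ifit3, Ifit3b, Ifi204, Rsad2 and Stat2) and Zbp1 was higher. Across all genes of that cluster 14.5% were lower and 7.27% higher. Ifi204 had 62.1 CPM in old and 140.0 CPM in young cells of the cluster, and Ifit3 had 25.6 CPM in old and 56.5 CPM in young cells. Stat2 had 15.7 CPM in old and 34.0 CPM in young cells, and Zbp1 had 44.4 CPM in old and 23.4 CPM in young cells, a ratio of 1.89 (1.498 to 2.36). The most abundant members showed little difference there, with Trim30a at 635 CPM in old and 647 CPM in young cells, Oasl2 at 646 CPM in old and 586 CPM in young cells, and Isg15 at 153 CPM in old and 149.7 CPM in young cells. In cluster 4, 9 members were lower in old cells and Zbp1 was higher, beside 13.4% of genes lower and 12.1% higher. In cluster 8, where 28 could be tested, 7 were lower and 3 (Ifit2, Herc6 and Zbp1) were higher, beside 33.6% of genes lower and 12.9% higher. The share of members lower in cluster 8 was thus below that of all genes. Zbp1 was the only member called higher in all 3 clusters, and Ifi204, Rsad2 and Ifit3b were called lower in all 3.

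The number of UMIs in a cell moved with the member level as well. In neutrophil-like cells with under 3000 UMIs the members had 2984 CPM in 461 old cells and 3718 CPM in 1033 young cells. With 3000 to 6000 UMIs they had 2012 CPM in old and 3062 CPM in young cells, and with 6000 to 12000 UMIs 1179 CPM in old and 2775 CPM in young cells. With 12000 UMIs or more they had 681 CPM in 1841 old cells and 2195 CPM in 86 young cells. Old cells were lower in each band, and the gap was narrowest in the band with the fewest UMIs.

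Beside neutrophils, monocyte-like cells of the old library also had lower member levels. In classical monocyte-like cells the members had 1093 CPM in old (1080 to 1107) and 2938 CPM in young cells (2872 to 3005), a ratio of 0.372 (0.363 to 0.382). Of 30 members tested, 29 were lower in old cells and 0 higher, beside 13.6% of all genes lower and 9.2% higher. The median gene of this class stood at −0.15 on the log2 scale, so the difference there did not accompany a general shift of the size seen in neutrophils. Irf7 had 47.8 CPM in old and 177 CPM in young cells, Isg15 had 30.7 CPM in old and 138 CPM in young cells, and Ifi204 had 141 CPM in old and 356 CPM in young cells. Ifi211, which shares sequence with Ifi204, had 1461 old and 643 young UMIs here, and 65 old and 197 young UMIs in non-classical monocyte-like cells. The split of reads between Ifi204 and Ifi211 is therefore uncertain in monocytes. Bst2, at 74.1 CPM in old and 186 CPM in young cells, was far above its neutrophil level in both libraries. Zbp1 was lower here, at 70.4 CPM in old and 123 CPM in young cells. The other members among the 10 with most UMIs were Trim30a with 173 CPM in old and 369.9 CPM in young cells, Oasl2 with 64.2 CPM in old and 209.9 CPM in young cells, and Parp14 with 76.8 CPM in old and 166 CPM in young cells. Rtp4 had 33.7 CPM in old and 123 CPM in young cells, and Stat2 had 36.1 CPM in old and 85.8 CPM in young cells. The other 20 members tested ranged from 1.59 to 36.8 CPM in old and from 8.12 to 107 CPM in young cells, and 19 of them were lower in old cells. At a finer clustering, a cluster holding 316 old and 168 young classical monocyte-like cells gave 1554 CPM in old and 2983 CPM in young cells, a ratio of 0.521 (0.504 to 0.538). The other finer cluster of this class held 885 old and 8 young cells. The ratio of 0.372 thus also holds for the mixture of cells in each library.

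Non-classical monocyte-like cells, the patrolling monocytes, showed a smaller difference. Their members had 935 CPM in old (909 to 960.3) and 1609 CPM in young cells (1574 to 1645), a ratio of 0.581 (0.561 to 0.602). Of 30 tested, 22 were lower in old cells and 0 higher, beside 10.8% of genes lower and 5.55% higher. Ifi204 had 88.04 CPM in old and 172 CPM in young cells, Oasl2 had 82.7 CPM in old and 159 CPM in young cells, and Irf7 had 37.7 CPM in old and 77.6 CPM in young cells. Parp14 had 75.7 CPM in old and 135 CPM in young cells, Rtp4 had 43.4 CPM in old and 88.3 CPM in young cells, and Oas3 had 33.7 CPM in old and 65.3 CPM in young cells. These 6 were lower in old cells. The other 4 of the 10 with most UMIs were within 1.5-fold: Trim30a had 173 CPM in old and 241 CPM in young cells, Zbp1 61.3 CPM in old and 86.8 CPM in young cells, Ifih1 45.4 CPM in old and 62.8 CPM in young cells, and Herc6 39.6 CPM in old and 55.0 CPM in young cells.

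Lymphocyte classes differed from one another. In B cell-like cells the members had 639.5 CPM in old (598 to 683) and 945 CPM in young cells (911 to 980.2), a ratio of 0.676 (0.627 to 0.730). Of 29 tested, 14 were lower and 1, Gbp2, was higher in old cells, beside 13.3% of genes lower and 7.8% higher. Oasl2 had 49.0 CPM in old and 109 CPM in young cells and Rtp4 had 21.9 CPM in old and 47.0 CPM in young cells. Irgm1, at 17.5 CPM in old and 28.0 CPM in young cells, was the third of the 10 most abundant members to be lower. The other 7 were within 1.5-fold. Of these Trim30a had 141 CPM in old and 197 CPM in young cells, Parp14 62.1 CPM in old and 74.6 CPM in young cells, Stat2 47.5 CPM in old and 52.4 CPM in young cells, and Herc6 33.6 CPM in old and 36.7 CPM in young cells. Bst2 had 27.8 CPM in old and 32.2 CPM in young cells, Ifi47 27.0 CPM in old and 25.7 CPM in young cells, and Oas3 20.5 CPM in old and 27.3 CPM in young cells.

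In T cell-like cells the member sum was close in both libraries, at 1089 CPM in old (1043 to 1136) and 1172 CPM in young cells (1121 to 1223), a ratio of 0.929 (0.874 to 0.988). Of 29 members, 3 were lower and 3 higher in old cells, below the shares of all genes, 13.3% lower and 11.3% higher. Ifih1, Ifit3b and Rsad2 were the 3 higher ones. Igtp had 29.99 CPM in old and 55.4 CPM in young cells and was lower. The other 9 of the 10 most abundant members were within 1.5-fold, among them Trim30a with 190.3 CPM in old and 167 CPM in young cells, Ifi47 with 104 CPM in old and 116 CPM in young cells, and Parp14 with 87.4 CPM in old and 84.0 CPM in young cells. Herc6 had 70.3 CPM in old and 80.5 CPM in young cells, and Bst2 had 49.6 CPM in old and 74.3 CPM in young cells. Oasl2 had 42.4 CPM in old and 48.6 CPM in young cells, Gbp2 had 47.6 CPM in old and 40.6 CPM in young cells, Rtp4 had 39.8 CPM in old and 48.0 CPM in young cells, and Zbp1 had 36.2 CPM in old and 49.7 CPM in young cells. The class was not alike in the libraries. It joined a cluster of 177 old and 98 young cells with another, led by Lef1, of 4 old and 80 young cells. The ratio of 0.929 thus holds for the mixture of cells in each library. In this class the 10 NK cell markers summed to 9638 CPM in old and 2478 CPM in young cells. Without the 125 old and 29 young cells with at least 0.5% of their UMIs from markers of another class, the ratio was 0.814 (0.746 to 0.889).

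NK cell-like cells had 596 CPM of members in old (486 to 723) and 1224 CPM in young cells (1174 to 1275), a ratio of 0.487 (0.396 to 0.593). The old value rests on 26 cells and 103 member UMIs, and erythroid markers summed to 73321 CPM in these old cells and 20237 CPM in the young ones. Of 26 members tested, 18 were lower and 1, Stat2, was higher in old cells, beside 27% of genes lower and 11% higher. Trim30a had 92.6 CPM in old and 219 CPM in young cells, and Ifi47 had 122 CPM in old and 96.1 CPM in young cells. Most other members had too few old UMIs to place: Oasl2 had 2 UMIs, Zbp1 and Isg15 had 1 each, and Parp14 had 11 UMIs in old cells. Rtp4 and Xaf1 had 5 UMIs each, Irf7 had 6 and Herc6 had 7 in old cells.

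**Figure D3:**
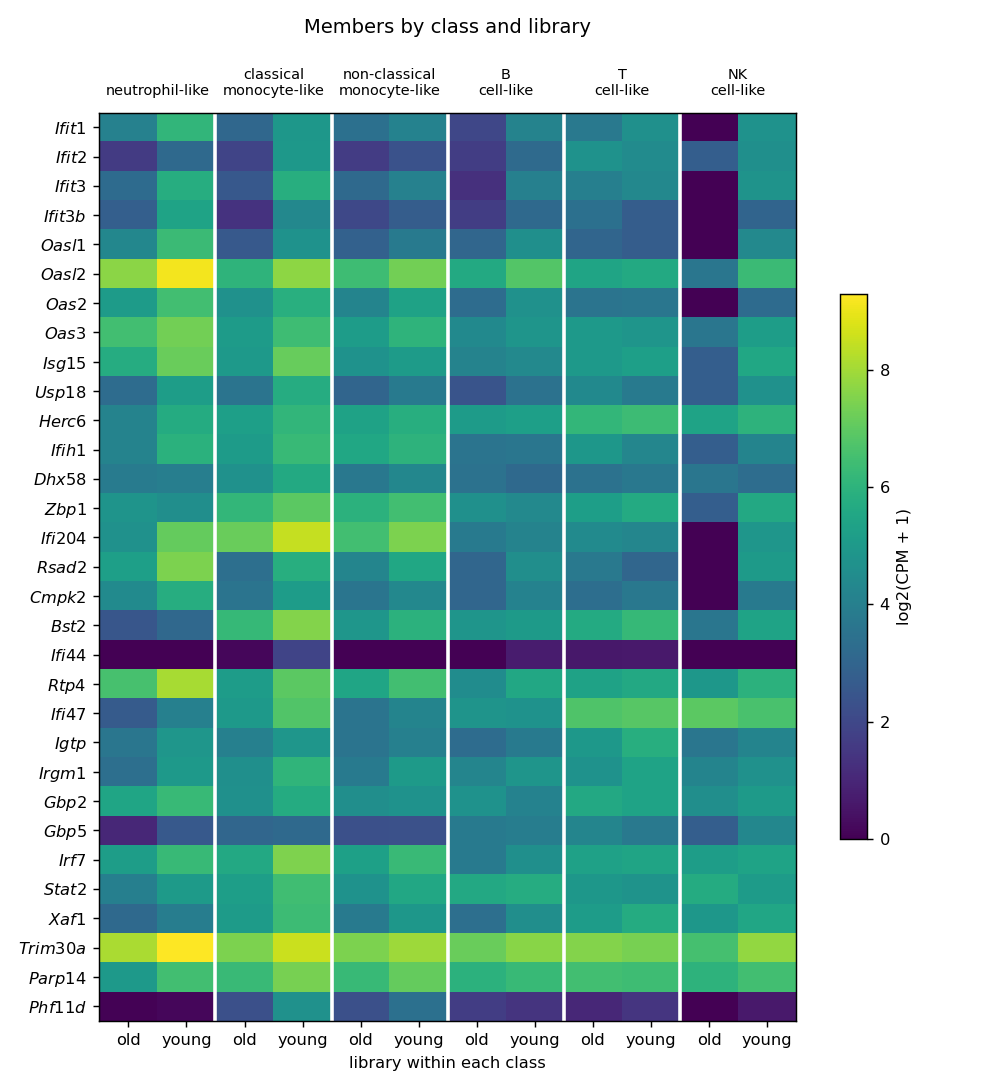
Level of each of the 31 members, as log2(CPM + 1), in 6 cell classes, with the old library left of the young library within each class. Old columns are darker than young columns for most members in neutrophil-like and both monocyte-like classes, and the T cell-like pair is nearly alike.

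Set against other classes of the same library, neutrophil-like cells did not stand highest for every member. Their member sum was 1.03 times that of classical monocyte-like cells in the old library (1.02 to 1.05) and 1.03 times in the young library (1.004 to 1.05). It was 1.21 times that of non-classical monocyte-like cells in the old and 1.88 times in the young library, and 1.76 times that of B cell-like cells in the old and 3.19 times in the young library. Against T cell-like cells it was 1.03 times in the old library (0.991 to 1.08), an interval that contains 1, and 2.58 times in the young library. Against NK cell-like cells it was 1.89 times in the old and 2.47 times in the young library. Over the 6 blood classes the young sums thus ran from neutrophil-like and classical monocyte-like, through non-classical monocyte-like, NK cell-like and T cell-like, to B cell-like cells. In the old library neutrophil-like, classical monocyte-like and T cell-like cells were close together, at 1126, 1093 and 1089 CPM.

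Single members had their own order. Oasl1, Oasl2, Oas3, Rsad2, Cmpk2 and Rtp4 were at least 1.5-fold higher in neutrophil-like cells than in each of the other 5 classes, in both libraries. Bst2 was at least 1.5-fold lower in neutrophil-like cells than in each of the other 5 classes in both libraries, and Xaf1 was lower in all comparisons but that with old B cell-like cells. Ifi47 was lower in neutrophil-like cells than in B, T and NK cell-like cells in both libraries, with 5.42 CPM in old and 15.6 CPM in young neutrophil-like cells against 104 CPM in old and 116 CPM in young T cell-like cells. Phf11d was found mainly in monocytes, with 85 old and 64 young UMIs in classical and 21 old and 48 young UMIs in non-classical monocyte-like cells, against 3 old and 5 young UMIs in neutrophil-like cells. Against classical monocyte-like cells, 12 of 30 members were higher and 13 lower in old neutrophil-like cells, beside 10.8% and 54.7% of all genes. In the young library 10 were higher and 12 lower, beside 23.8% and 44.7% of genes. Against B cell-like cells 16 of 29 were higher in old and 19 in young neutrophil-like cells, beside 16.8% and 23.2% of genes, and 7 were lower in old and 5 in young, beside 56.5% and 48.6%. Against T cell-like cells 8 of 29 were higher in old and 17 in young neutrophil-like cells, beside 14.9% and 25% of genes, and 14 were lower in old and 8 in young, beside 58.8% and 49.8%. Against non-classical monocyte-like cells 12 of 30 were higher in old and 16 in young neutrophil-like cells, beside 9.73% and 18.5% of genes, and 11 were lower in old and 5 in young, beside 56.7% and 46.4%. Against NK cell-like cells 16 of 29 were higher in old and 18 in young neutrophil-like cells, beside 28.8% and 23.3% of genes, and 9 were lower in old and 6 in young, beside 50.7% and 50.4%. The old counts of this comparison rest on 26 NK cell-like cells with 103 member UMIs, too few to place most members.

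UMIs of S100a8, the neutrophil transcript, were also found in the other classes, and monocytes can express this gene themselves. They reached between 1.88% and 33.8% of the neutrophil-like level per cell in the 5 other classes. If all of these UMIs came from neutrophil RNA that carried the members in proportion, such RNA would make up between 4.69% and 38.9% of the member UMIs of those classes, with the highest share in young B cell-like cells and the lowest in old NK cell-like cells. The part of neutrophil RNA in the values above was not tested.

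To compare detection in single cells, each cell was thinned at random to 1000 UMIs, which left out 24 old and 17 young neutrophil-like cells. After thinning, an old neutrophil-like cell held on average 1.45 member UMIs from 1.18 members, and a young cell 3.10 member UMIs from 2.26 members. No member was detected in 39.0% of old cells and 19.9% of young cells. A UMI from at least 3 members was found in 12.8% of old cells (12.1% to 13.5%) and 32.8% of young cells (31.8% to 33.7%). Without thinning these shares were 76.2% of old and 77.6% of young cells, at median depths of 7446.5 and 4081 UMIs, so unthinned detection differed little between the libraries. At least 8 members were found in 74 old cells (0.843%) and 383 young cells (3.93%). Within cluster 0 the share with at least 3 members was 31.1% in old cells (27.3% to 35.1%) and 33.5% in young cells (32.5% to 34.5%), a difference within the counting error.

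**Figure D4:**
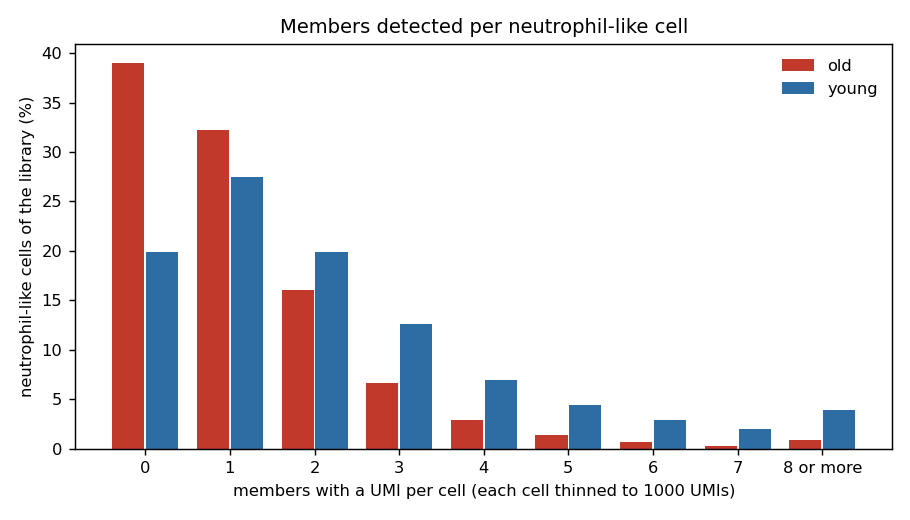
Share of neutrophil-like cells (%) by the number of members with a UMI after thinning to 1000 UMIs, for old cells (red, left) and young cells (blue, right). Old cells peak at 0 members and young cells at 1, and young bars exceed old bars from the bar for 2 members to the pooled bar for 8 or more.

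Among single members, Trim30a was found in 26.5% of old and 42.8% of young thinned neutrophil-like cells, and Oasl2 in 21.2% of old and 36.3% of young cells. Erythroid-like cells held few transcripts of these 2 genes. These cells, thinned to the same depth from median depths of 6894 old and 9334 young UMIs, gave 1.48% of old and 0.82% of young cells with Trim30a and 1.69% of old and 0% of young cells with Oasl2. Rsad2 was found in 3.85% of old and 11.9% of young neutrophil-like cells, Isg15 in 5.60% of old and 10.1% of young cells, and Ifit1 in 1.44% of old and 4.62% of young cells. Rsad2 and Isg15 were not low in erythroid-like cells, where Rsad2 was found in 24.9% of old and 25.4% of young cells and Isg15 in 6.54% of old and 4.92% of young cells, so no background share could be set for them. Ifit1, Ifit3 and Rsad2 were unevenly spread over cells. The Fano factor, the variance over the mean, which is near 1 for random sampling from like cells, was 3.64 in old and 2.40 in young cells for Ifit1, 2.13 in old and 2.21 in young cells for Ifit3, and 2.00 in old and 2.11 in young cells for Rsad2. It was near 1 for Dhx58 (0.987 in old and 1.10 in young cells), Igtp (1.04 in old and 1.07 in young cells) and Stat2 (1.02 in old and 1.13 in young cells). For the sum of all members it was 4.02 in old and 5.62 in young cells. The 5% of cells with most member UMIs held 29.6% of all member UMIs in old and 26.1% in young cells.

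A member was found more often in neutrophil-like cells that also held another member. Rsad2 was found in 19.3% of old cells with Isg15 (15.9% to 23.1%) and 2.93% of old cells without it. In young cells the shares were 32.3% with Isg15 (29.3% to 35.3%) and 9.56% without it. The contrast between cells with and without Isg15 was thus present in both libraries. Within cluster 0 it was also present, at 30.2% of 63 old cells with Isg15 against 6.72% without, and 32.2% of 962 young cells with Isg15 against 9.77% without. Ifit3b was found in 19.5% of old cells with Ifit3 and 0.506% of old cells without it, and in 32.0% of young cells with Ifit3 and 1.81% without it, a pair whose reads can be shared. Trim30a, by contrast, was found in 36.7% of old cells with Oasl2 and 23.7% without it, and in 49.9% of young cells with Oasl2 and 38.7% without it. Zbp1, although not lower in old cells, was found in 7.52% of old cells with Isg15 and 2.79% without it, and in 5.97% of young cells with Isg15 and 1.62% without it.

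Pearson correlations of log(1 + UMIs) across thinned cells are given as a description in sparse counts from the same library. Only members found in at least 50 cells were paired. The correlations were above 0 for 316 of 325 pairs in old and 378 of 378 in young neutrophil-like cells. Pairs of other genes were not computed, so whether members exceed other genes in this was not tested. The median over the pairs of members was 0.064 in old and 0.098 in young cells. The highest pair was Ifit1 with Ifit3b in old cells (0.355) and Ifit3 with Ifit3b in young cells (0.445). The correlation of a member with the sum of the others was highest for Oasl2 in old cells (0.280) and for Rsad2 in young cells (0.380), and lowest for Dhx58 in old cells (0.019) and Bst2 in young cells (0.066). Zbp1 stood at 0.110 in old and 0.131 in young cells. Within cluster 0, among members found in at least 20 cells, the median was 0.092 over 120 pairs in old cells and 0.097 over 406 pairs in young cells, which are unlike sets of pairs.

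**Figure D5:**
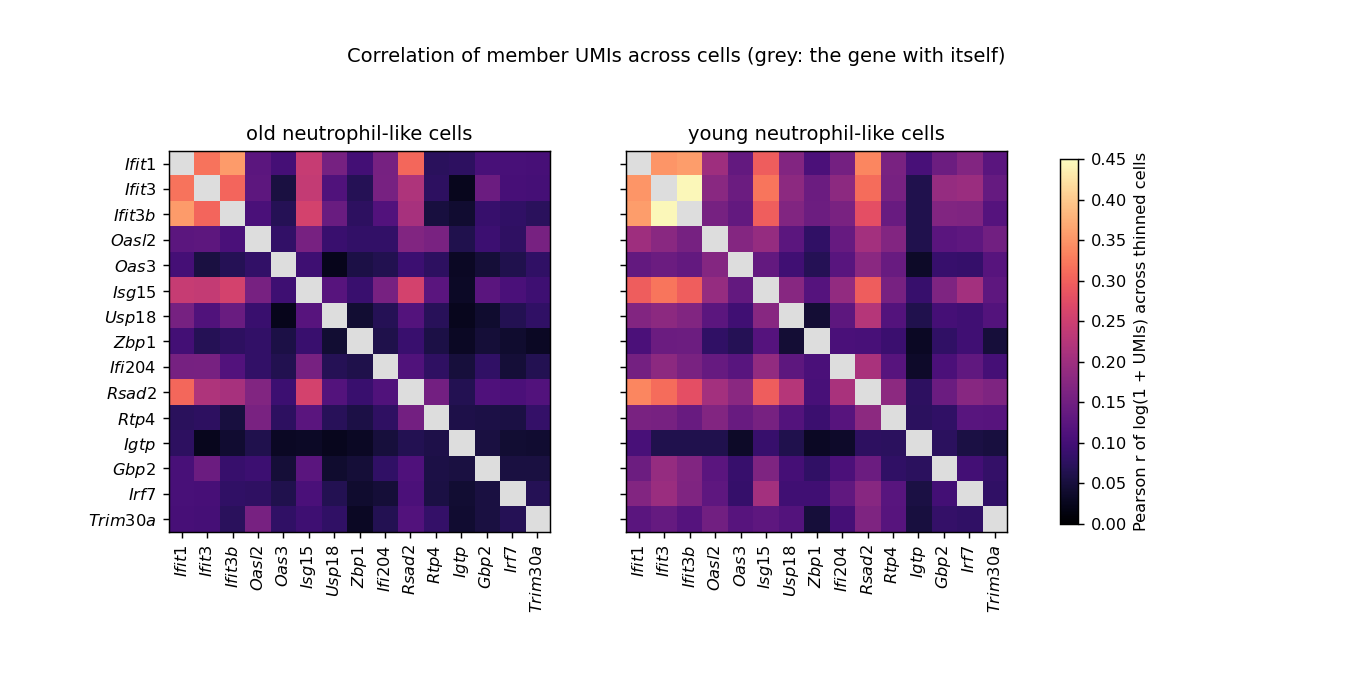
Pearson correlation of log(1 + UMIs) between 15 members across old neutrophil-like cells (left) and young neutrophil-like cells (right), each thinned to 1000 UMIs. The brightest block in both panels is formed by Ifit1, Ifit3, Ifit3b, Isg15 and Rsad2, and Igtp and Zbp1 are darkest.

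In other classes the median correlation between members was lower than in neutrophil-like cells where it could be computed, over unlike sets of pairs. In classical monocyte-like cells at least 3 members were found in 11.3% of old cells (9.53% to 13.2%) and 39.2% of young cells (31.9% to 46.8%), close to the neutrophil shares. In non-classical monocyte-like cells the shares were 7.33% of old and 15.8% of young cells, in B cell-like cells 3.07% of old and 5.04% of young cells, in T cell-like cells 10.1% of old and 10.9% of young cells, and in NK cell-like cells 3.85% of the 26 old and 8.53% of the young cells. The Fano factor of the member sum was 1.81 in old and 3.05 in young classical monocyte-like cells, below the neutrophil values in both libraries. The median correlation over pairs of members found in at least 10 cells was 0.022 in old and 0.028 in young classical monocyte-like cells, against 0.063 in old and 0.097 in young neutrophil-like cells by the same minimum. It was 0.015 in old and 0.0019 in young non-classical monocyte-like cells. These medians cover 406 pairs in neutrophil-like cells of each library. They cover 253 old and 171 young pairs in classical and 66 old and 120 young pairs in non-classical monocyte-like cells. Rsad2 was found in 2 of 43 old and 5 of 14 young classical monocyte-like cells with Isg15, and in 0.952% of old and 5.56% of young cells without it. The young share with Isg15 was 35.7% (12.8% to 64.9%). This contrast was not smaller than that in young neutrophil-like cells, and it rested on 14 cells.

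The rest of the interferon pathway in neutrophil-like cells was described from a list of 135 other genes in the files. This list, too, was chosen with earlier results of these data known. Of 103 with enough UMIs, 69 were lower and 4 higher in old cells, beside the background of 37.1% lower and 7.17% higher given above. Relative to the median gene 29 were lower and 11 higher, beside 8.15% of all genes lower and 30.2% higher. Their median of −0.80 on the log2 scale was nearer to the median gene than that of the 31 members. Interferon ligands were almost absent: 0 of 21 had enough UMIs, Ifng had 1 old and 2 young UMIs, and Ifnk had 2 old and 1 young UMI. Ifng, the product of activated T and NK cells, had 11 old and 6 young UMIs in T cell-like cells and 3 old and 77 young UMIs in NK cell-like cells. Ifna13 with 2 UMIs and Ifnab with 1 UMI appeared in old classical monocyte-like cells.

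Of 6 receptor genes, 3 were lower and 0 higher, but relative to the median gene 0 were lower and 2 higher. Ifngr1, a chain of the interferon gamma receptor, had 166 CPM in old and 174 CPM in young cells, and Ifngr2, its partner chain, had 108 CPM in old and 186 CPM in young cells. Ifnar2 had 136 CPM in old and 176 CPM in young cells, and Il10rb, the chain shared by interferon lambda and interleukin receptors, had 93.6 CPM in old and 150.4 CPM in young cells. Of 11 kinases and transcription factors, 9 were lower, and relative to the median gene 2 were lower and 1 higher. Stat3 had 341 CPM in old and 619 CPM in young cells, Jak1 had 275 CPM in old and 591 CPM in young cells, Irf2 had 225 CPM in old and 510.4 CPM in young cells, and Irf1 had 112 CPM in old and 205 CPM in young cells. All 7 feedback inhibitors were lower, 2 of them relative to the median gene, among them Ptpn6 with 250.4 CPM in old and 412 CPM in young cells and Socs3 with 136 CPM in old and 227 CPM in young cells. Pias1 had 112 CPM in old and 289.8 CPM in young cells, and Usp25 had 110.3 CPM in old and 234 CPM in young cells.

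Genes of nucleic acid sensing upstream of interferon were lower in 10 of 15 and higher in 1, and relative to the median gene 4 were lower and 2 higher. Samhd1, a dNTP hydrolase that restricts retroviruses, had 652 CPM in old and 1036 CPM in young cells, and the adaptor Myd88 had 105 CPM in old and 169 CPM in young cells. Unc93b1, the chaperone of endosomal Toll-like receptors, had 88.7 CPM in old and 223 CPM in young cells, and Trim25 had 89.2 CPM in old and 142 CPM in young cells. Of 37 other antiviral effectors, 23 were lower and 2 higher, and relative to the median gene 10 were lower and 4 higher. The 4 with most UMIs, Ifi27l2a, Trim30b, Ly6e and Sp100, had 186, 278, 183 and 196 CPM in old and 767, 567, 503 and 251 CPM in young cells. The 2 higher ones were Samd9l with 187 CPM in old and 103 CPM in young cells and Mov10, an RNA helicase, with 132 CPM in old and 73.9 CPM in young cells, named because they were few. Of 6 other inducible GTPases 5 were lower, and of 9 PYHIN genes 6 were lower, with 4 of each lower relative to the median gene and 1 PYHIN gene higher. Of 8 genes of the immunoproteasome and peptide transport 4 were lower, 1 of them relative to the median gene, with B2m, the light chain of class I molecules, at 577 CPM in old and 1129 CPM in young cells. Of 4 chemokine and ligand genes 2 were lower and 1 was higher, Ccl2 with 115 old and 16 young UMIs.

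Outside the list, the 10 genes whose UMIs correlated best with the member sum across young neutrophil-like cells included Slfn4, Slfn5, Ddx60, Rnf213, Sp100, Ifitm3, Epsti1, Ddx58 and Slfn8, out of 4563 genes of at least 20 CPM. Slfn4 had r = 0.344 over 9747 young cells and 0.159 over 8778 old cells, and Slfn5 had 0.339 in young and 0.228 in old cells. All 10 were among genes marked as interferon-induced and left out of the clustering. Ifitm3 was the exception in the old library, with r = 0.231 in young cells but 0.023 in old cells, where it ranked 1787 of 4563. The lowest correlations belonged to S100a8 in both libraries, at −0.32 in old and −0.14 in young cells.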

How the data were processed

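Deposited were 2 matrices of raw UMI counts per gene and cell barcode, made by the authors with Cell Ranger 7.2.0, per the file headers, against mm10, per the submitters' processing notes. The annotation release, and whether counting used strand or introns, are not given in the sources used here. The labels describe a BD Rhapsody capture. The 31 members, the 135 other pathway genes and the marker lists were chosen with earlier results of these data known. The cell filter required 200 genes and allowed a mitochondrial share of 20%. They were clustered jointly with scanpy 1.11.5 (2000 variable genes per library without the members and other interferon genes, 30 principal components, 15 neighbours, Leiden resolution 0.6 with leidenalg 0.10.2). A cluster took the name of the marker list that fitted it best where at least 3 of its markers were detected, unless its leading genes held more markers of another list, its UMI count was low with no own marker leading, or it had under 20 cells. No doublet caller was run. As an alternative, cells were dropped where markers of another class supplied 0.5% or more of their UMIs.

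UMIs were summed per library and class and divided by the class total (CPM). Ratios carry exact conditional binomial intervals, CPM Poisson intervals and shares Clopper-Pearson intervals, all at 95% (scipy 1.17.1, pandas 2.3.3, numpy 2.4.6, Python 3.11.15). A difference was counted at 1.5-fold on log2(CPM + 1) with at least 20 UMIs over both libraries. All 31 members are given for neutrophil-like cells, the 10 with most UMIs for the other classes, up to 4 genes per role for the wider pathway and 10 genes by correlation, of which 1 is not reported here. Cells were thinned to 1000 UMIs with fixed seeds for detection. Alternatives were 2000 UMIs or none, other cell filters, clusterings, totals, weights, count minimums and pseudocounts. Gene positions are from GENCODE (GRCm38). The calculations were tested on simulated counts.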

Additional observations from a re-analysis of the deposited data

Results flagged for a closer look

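For 5 members the old and young libraries differed in opposite directions in at least 2 classes, past 1.5-fold in each. Members called higher in old cells were few: 1 of 29 tested in B cell-like, 3 of 29 in T cell-like and 1 of 26 in NK cell-like cells. Across all genes, 7.8%, 11.3% and 11% were higher in these classes, so the members did not exceed the share of all genes. The difference between classes was not tested, since each class has 1 library per age. Values are log2 of old over young, each CPM plus 1. Gbp2 stood at 0.61 in B cell-like cells and −0.80 in neutrophil-like cells. In B cell-like cells this rested on 35 old and 51 young UMIs, and the interval of the ratio (0.984 to 2.44) contained 1.

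Of the T cell-like values, that of Ifih1 was 0.64, against −1.79 in neutrophil-like cells, from 56 old and 32 young UMIs with a ratio of 1.58 (1.01 to 2.53). Ifit3b stood at 0.69 in T cell-like cells and −2.57 in neutrophil-like cells, from 19 old and 10 young UMIs in the T cell-like class. Rsad2 stood at 0.67 in T cell-like cells and −2.21 in neutrophil-like cells, from 24 old and 13 young UMIs. The intervals of the T cell-like ratios contained 1 for Ifit3b (0.761 to 4.14) and Rsad2 (0.818 to 3.57). NK cell markers were also higher in old than in young T cell-like cells, and their part in these values was not tested. Stat2 stood at 0.64 in NK cell-like cells and −1.08 in neutrophil-like cells, where the old NK cell-like value came from 9 UMIs in 26 cells (0.687 to 3.18).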

How the results depend on the processing

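Of the summary values recomputed under each alternative, 122 stayed within the interval of the reported value, or within 1.5 times a reported count, 49 moved and 1 changed side. The old over young ratio of the member sum in neutrophil-like cells was below 1 under all 11 settings tried, from 0.368 to 0.888. Within the cluster with at least 200 cells of each library it was 0.888, with 6 members lower and 1 higher, and Gbp2 (0.41), Gbp5 (0.083), Isg15 (0.031) and Oasl2 (0.14) changed sign on the log2 scale. Within finer shared clusters, an alternative chosen after seeing the data, the ratio was 0.845 in neutrophil-like, 0.521 in classical and 0.536 in non-classical monocyte-like cells. Relative to the median gene, 1 member was higher and Bst2 stood at 0.012. The cause of these shifts was not tested.

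With equal weight per cell the old over young ratio was 0.467 in neutrophil-like and 0.396 in classical monocyte-like cells. Neutrophil-like cells then stood at 1.26 (old) and 1.07 (young) times classical monocyte-like, 1.61 (old) and 2.06 (young) times non-classical monocyte-like, 2.76 (old) and 3.84 (young) times B cell-like, 2.32 (old) and 2.78 (young) times NK cell-like and 1.24 (old) times T cell-like cells. With S100a8, S100a9, mitochondrial and ribosomal protein genes out of the total, the old over young ratio was 0.478 in neutrophil-like, 0.397 in classical and 0.623 in non-classical monocyte-like cells. Neutrophil-like cells then stood at 1.20 (old) and 1.001 (young) times classical monocyte-like, 1.46 (old) times non-classical monocyte-like, 1.99 (old) and 2.94 (young) times B cell-like, 1.16 (old) and 2.29 (young) times T cell-like and 2.38 (old) times NK cell-like cells.

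With the stricter cell filter the old over young ratio in neutrophil-like cells was 0.368, and neutrophil-like cells stood at 1.01 (old) and 0.997 (young) times classical monocyte-like cells, the value that changed side. With interferon genes kept in the clustering these were 0.369 for the ratio and 1.05 (young) against classical monocyte-like cells. Without cells holding markers of another class the T cell-like ratio was 0.814, and neutrophil-like cells stood at 1.12 (old) and 2.45 (young) times T cell-like cells. Without the 5% of cells with the highest member share the neutrophil-like ratio was 0.391. The share of neutrophil-like cells with at least 3 members was 29.8% (old) and 54.8% (young) at 2000 UMIs and 76.2% (old) and 77.6% (young) without thinning. With at least 2 members it was 28.8% (old) and 52.7% (young), and with at least 5 it was 3.22% (old) and 13.2% (young). Rsad2 in cells with Isg15 was found in 24.7% (old) and 41.9% (young) at 2000 UMIs and in 32.5% (old) and 50.4% (young) without thinning. No paired analysis was possible because each age has 1 library. For single members, 187 values stayed, 127 moved and the 5 named above, which were past 1.5-fold, changed sign. Dhx58, which was within 1.5-fold at −0.095, stood at 0.58 relative to the median gene and 0.083 without the 5% of cells. Depth limits the members of few UMIs, such as Gbp5, Ifit2 and Bst2 in neutrophil-like cells and most members in the 26 old NK cell-like cells.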

Other observations

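Outside the 6 blood cell classes, platelet-like and erythroid-like cells carried a few members at high levels. Igtp had 805 CPM in old and 901 CPM in young platelet-like cells, the highest level of this gene in any class, and was found in 57.0% of old and 54.7% of young platelet-like cells thinned to 1000 UMIs, which left out 386 old and 215 young cells. Ifi47 had 155 CPM in old and 136 CPM in young platelet-like cells, and Ifit1 had 48.5 CPM in old and 240.5 CPM in young platelet-like cells. Irgm2, which overlaps Igtp, had 15.8 CPM in old and 24.96 CPM in young platelet-like cells. In erythroid-like cells Rsad2 had 374 CPM in old and 276 CPM in young cells, above its level in all other classes of both libraries, and Isg15 had 117 CPM in old and 110 CPM in young cells. The sum over all members was 569.7 CPM in old and 480.2 CPM in young erythroid-like cells, the only one of the classes summed in which the old sum was higher.

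Several clusters were left unnamed. Cluster 3, in which neutrophil markers were detected but platelet genes led, held 721 old and 938 young cells with 1458 CPM of members in old and 3269 CPM in young cells. Cluster 11, of low UMI count, held 319 old and 67 young cells, with 1285 CPM in old and 3751 CPM in young cells. In cluster 13, led by erythroid genes, the members had 1050 CPM in 159 old and 1329 CPM in 125 young cells.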
